A study of Mus musculus with 8 samples.

Results

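The smooth muscle genes of the outflow wall were examined in mouse embryos with reduced Isl1. They were chosen by symbol and comprised Myocd, Srf, Acta2, Actg2, Tagln, Cnn1, Myh11, Mylk, Smtn and Des, 10 of the 20701 gene symbols in the table. Where a symbol had several transcripts, the one with most counts on average represented it, and all 10 genes were among the 13769 that passed the filter on low counts. Polyadenylated RNA of single C57BL/6 embryos at E10.5 was sequenced from the outflow tract dissected together with the right ventricle (OFT/RV). The 4 control embryos (CTRL) were wild type, and the other 4 were hypomorphic for the LIM-homeodomain transcription factor gene Isl1 (Isl1_hypo). The study gives the genotype of the hypomorphic line as f;neo on both Isl1 alleles. The dissected tissue joined outflow tract and ventricle, and no cell type was sorted from it.

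Serum response factor, the product of Srf, binds DNA elements called CArG boxes. Myocardin, the product of Myocd, does not bind these elements itself and acts as a cofactor of serum response factor in cardiac and smooth muscle cells. The pair switches on genes for the contractile apparatus, among them the smooth muscle actins, the calponin Cnn1, the actin-bundling protein Tagln (SM22) and smooth muscle myosin. In the early embryo several of these genes, including Acta2 and Tagln, are also active in cardiomyocytes, and the outflow wall passes from a myocardial to a smooth muscle character as the great arteries form.

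Because these genes are known for regulation through CArG boxes, the boxes in their promoters are shown with the actin and Srf sequences that hold them. Sequences were taken from RefSeq promoters of build GRCm38.p6, which reach from 250 bases before to 50 bases after the transcription start. Promoters of 6 of the 10 genes were matched (Srf, Acta2, Cnn1, Mylk, Smtn and Des), together with that of the cardiac actin gene Actc1, used below as a partner of Acta2. A CArG box was defined as CC, then 6 bases that are each A or T, then GG, on either strand. A CArG-like box was allowed 1 G or C among the 6 inner bases, so that every CArG box is also a CArG-like box. The lines give the strand of the gene 5′ to 3′, with CArG and CArG-like boxes in capitals.
Srf, chr17:46556190-46556269, minus strand: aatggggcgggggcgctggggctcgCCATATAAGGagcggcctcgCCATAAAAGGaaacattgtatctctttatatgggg
Acta2, chr19:34255374-34255482, minus strand: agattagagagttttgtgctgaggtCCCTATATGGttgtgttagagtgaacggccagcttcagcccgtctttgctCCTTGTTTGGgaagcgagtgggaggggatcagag
Actc1, chr2:114052888-114053075, minus strand: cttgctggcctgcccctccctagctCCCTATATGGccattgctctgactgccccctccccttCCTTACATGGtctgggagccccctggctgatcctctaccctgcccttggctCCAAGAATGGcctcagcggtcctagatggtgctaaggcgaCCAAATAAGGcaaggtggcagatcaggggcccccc

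The Srf promoter held 2 CArG boxes, which began 82 and 62 bases before the start. The Acta2 promoter held no CArG box in the strict sense and 2 CArG-like boxes, at 84 and 34 bases before the start. The Actc1 promoter held a CArG box at 47 bases and 3 further CArG-like boxes at 175, 138 and 87 bases. The element CCCTATATGG stood in both actin promoters, as the box farthest from the start in each. No CArG or CArG-like box lay in the windows of Cnn1, Mylk, Smtn and Des. Of all 32851 promoters in the table, 1.63% held a CArG box and 9.98% a CArG-like box. These matches describe letters in a short window, and the wider rule was added after the strict rule had been applied to these promoters.

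The libraries held 29748458 to 46678973 counts in CTRL and 18422245 to 33050298 in Isl1_hypo. Levels are given as depth-scaled counts (CPM, with TMM scaling), as mean ± SD over 4 embryos, and log2 fold changes are Isl1_hypo against CTRL. Isl1 fell to 9.67 ± 2.83 CPM in Isl1_hypo from 47.2 ± 13.3 CPM, with no overlap and a log2 fold change of −2.29 (adjusted p = 0.0077, edgeR quasi-likelihood test with Benjamini-Hochberg adjustment over all genes tested). The library of Isl1_hypo replicate 3 stood apart from the other 7 on the first principal component, at 72 against −17.7 to 4, and had the fewest genes detected. Many values below are therefore also given without it. In none of the 26 groups of 4 values examined did a single library pass Dixon's 95% limit for a value far from the rest, so that the low or high libraries named below are described by their rank and level. Globin genes took 0.212% to 1.19% of counts in CTRL and 1.18% to 2.44% in Isl1_hypo, and the part of blood in the values below was not tested.

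None of the 10 smooth muscle genes passed an adjusted p of 0.05 by the edgeR test, against 0.269% of all genes tested (37 genes, 20 higher and 17 lower). At an unadjusted p under 0.05, Actg2 and Myh11 were lower in Isl1_hypo, 2 of 10 against 6.17% of all genes tested, and none was higher, against 5.69%. Myh11 passed the filter on low counts through the CTRL libraries alone, and with at least 10 counts required in every library 1 gene, Actg2, was counted. DESeq2 called 1 of the 10, Actg2, against 2.32% of all genes it tested. The log2 fold change was under 0 for 9 of the 10 genes, with Mylk as the exception, and its median was −0.26, where all genes tested had a median of 0.006 and 49.1% under 0. Without Isl1_hypo replicate 3 the median was −0.10, and 7 of 10 genes were under 0. In bulk tissue fewer cells of a type and less RNA per cell cannot be told apart.

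**Figure D1:**
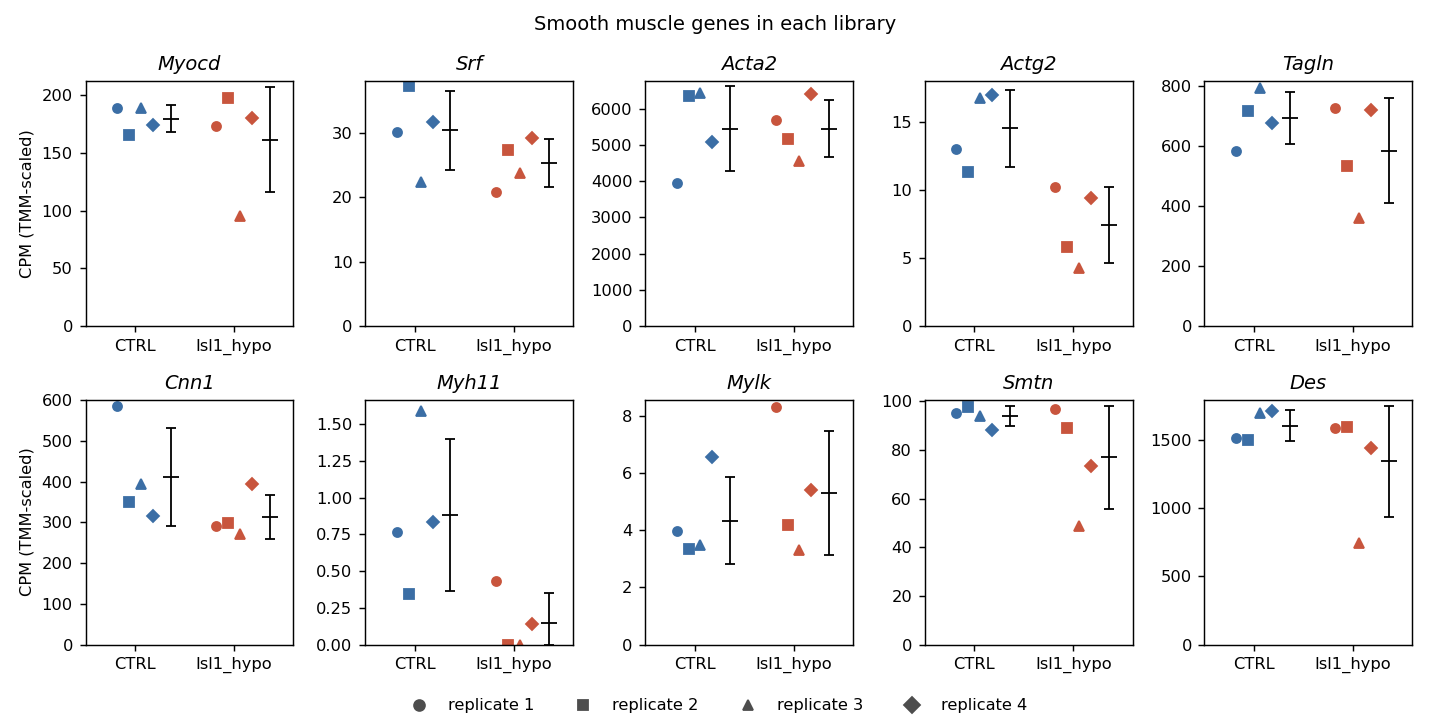
CPM (vertical axis, linear, from 0) of the 10 smooth muscle genes in each of the 4 CTRL (blue) and 4 Isl1_hypo (red) libraries, with marker shape giving the replicate number, and mean ± SD in black beside each group (the lower bar is stopped at 0). Actg2 is the gene whose groups do not overlap, and Isl1_hypo replicate 3 (triangle) lies lowest of all 8 libraries for Myocd, Actg2, Tagln, Cnn1, Mylk, Smtn and Des.

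The regulators were compared first. Myocd (mm9, chr11:64990063-65083491, minus strand, protein coding) measured 189, 166, 189 and 174 CPM across CTRL 1 to 4, against 173, 197, 95.1 and 180 CPM across Isl1_hypo 1 to 4. Isl1_hypo replicate 3 was the lowest library and replicate 2 the highest, so that the groups overlapped. The means were 179.5 ± 11.6 CPM in CTRL and 161 ± 45.4 CPM in Isl1_hypo, a log2 fold change of −0.15 with a 95% interval of −0.56 to 0.25 (adjusted p = 0.775, edgeR). Isl1_hypo replicate 3 held 51.8% of the mean of the other Isl1_hypo embryos. Without it the Isl1_hypo mean was 183.5 ± 12.5 CPM and the log2 fold change 0.03, so the sign of the difference rested on that library.

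Srf (chr17:46683788-46693111, minus strand), which encodes the DNA-binding factor, was much less abundant than its cofactor. Its level was 30.1, 37.2, 22.4 and 31.7 CPM across CTRL 1 to 4, against 20.8, 27.3, 23.7 and 29.2 CPM across Isl1_hypo 1 to 4. The ranges overlapped, since CTRL replicate 3 lay below 3 of the 4 Isl1_hypo libraries. The log2 fold change was −0.26, with a 95% interval of −0.64 to 0.11 (adjusted p = 0.565, edgeR). It was −0.15 without CTRL replicate 2 and −0.39 without CTRL replicate 3. Per kilobase of transcript, the log2 ratio of Myocd to Srf was 2.26 ± 0.386 in CTRL and 2.31 ± 0.456 in Isl1_hypo. The difference of 0.049 did not pass a 2-sided exact permutation test over the 70 assignments of libraries (p = 0.914, adjusted over 2 ratios 0.914). When any 1 library was left out it ranged from −0.095 to 0.26, the latter without Isl1_hypo replicate 3. The lowest ratio, 1.68, was that of Isl1_hypo replicate 3, and the next, 1.83, was that of CTRL replicate 2.

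Myocd was listed with a pair of transcripts that differ in length by 143 bases. An exon of 144 bases (mm9, chr11:64997990-64998133), present in 2 of its 7 GENCODE transcripts, comes close to this difference. It was taken as the exon of the longer transcript by its length alone. Reads counted only in the longer transcript numbered 82, 62, 85 and 45 in the CTRL replicates and 31, 51, 42 and 48 in the Isl1_hypo replicates. Divided by the 143 bases, their density was 48.8%, 32.2%, 39.1% and 19.2% of that over the shorter transcript in CTRL, and 34.1%, 33.9%, 49.1% and 32.2% in Isl1_hypo. The exon was read less densely than the rest of the transcript in every library, and the spread within CTRL covered that of Isl1_hypo apart from replicate 3, which exceeded the highest CTRL value by less than its counting error. The group means were 34.9% ± 12.4 and 37.3% ± 7.89, and a 2-sided exact permutation test of the log2 density gave p = 0.686. This comparison was chosen after the table had been seen.

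**Figure D2:**
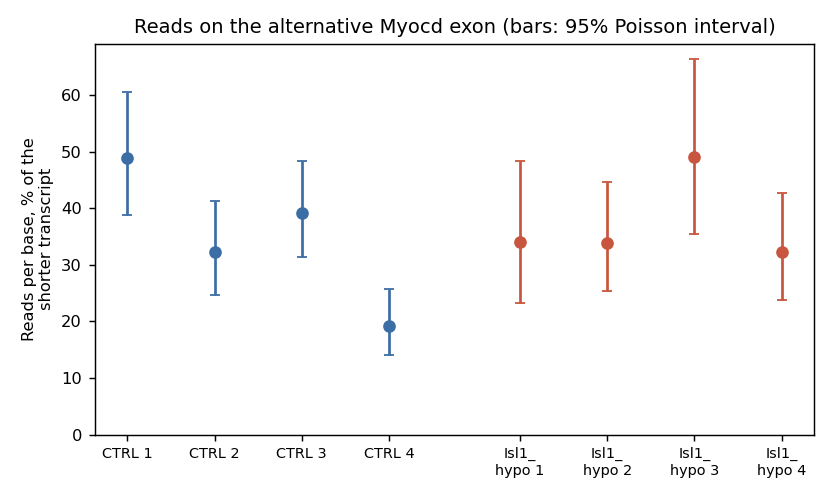
Reads per base on the alternative Myocd exon as a percentage of the reads per base over the shorter transcript (vertical axis, from 0), for the 4 CTRL (blue) and 4 Isl1_hypo (red) libraries, with 95% Poisson intervals that cover counting error only. The points lie between 19.2% and 49.1%, and the groups overlap.

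The smooth muscle actins form the thin filaments that myosin pulls on. Acta2 (chr19:34315580-34329826, minus strand), encoding smooth muscle α-actin, was the most abundant of the 10 genes. It stood at 3935, 6340, 6421 and 5086 CPM across CTRL 1 to 4, against 5681, 5151, 4546 and 6390 CPM across Isl1_hypo 1 to 4. The lowest library was CTRL replicate 1 and the highest CTRL replicate 3, so the Isl1_hypo values lay inside the CTRL range. The means were 5446 ± 1178 and 5442 ± 784 CPM. The log2 fold change was −0.0009, and its 95% interval of −0.36 to 0.36 bounds the difference that these 8 embryos allow (adjusted p = 0.998, edgeR). It was 0.08 without Isl1_hypo replicate 3.

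Actg2 (chr6:83462899-83486259, minus strand), which encodes smooth muscle γ-actin, was measured from far fewer reads. The raw counts were 406, 460, 676 and 796 in the CTRL replicates and 188, 155, 136 and 271 in the Isl1_hypo replicates. In CPM the CTRL values were 13, 11.3, 16.8 and 17.0 and the Isl1_hypo values 10.2, 5.81, 4.30 and 9.38. Every Isl1_hypo embryo lay below every CTRL embryo, although Isl1_hypo replicate 1 and CTRL replicate 2 were close to each other. It was the only one of the 10 genes with no overlap in that direction, where 4.44% of all genes tested had none. None of the 10 lay wholly above CTRL, where 4.06% of all genes tested did.

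The mean of Actg2 was 14.5 ± 2.83 CPM in CTRL and 7.42 ± 2.83 CPM in Isl1_hypo, or 51.1% of CTRL. On the log2 scale it differed by −0.97 (standard error 0.275, 95% interval −1.58 to −0.37). The unadjusted p of 0.00437 placed Actg2 at rank 292 of all genes tested, and its adjusted p was 0.205 by edgeR and 0.0387 by DESeq2. The exact permutation test gave p = 0.0286, the smallest value that 4 against 4 libraries allow. Without Isl1_hypo replicate 3, which held the lowest level, the log2 fold change was −0.78 (adjusted p = 0.24, edgeR).

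To compare the actins within each library, Acta2 was set against Actc1, the α-actin of the heart muscle, per kilobase of transcript. The log2 ratio was −2.99, −2.67, −2.64 and −2.86 in the CTRL replicates and −2.76, −2.98, −3.14 and −2.90 in the Isl1_hypo replicates. Isl1_hypo replicate 3 had the lowest ratio, and CTRL replicate 1 lay among the Isl1_hypo values. The mean was −2.79 ± 0.164 in CTRL and −2.95 ± 0.156 in Isl1_hypo, so that Acta2 stood at a ratio of 0.145 to Actc1 in CTRL and 0.13 in Isl1_hypo. The difference of −0.16 did not pass a 2-sided exact permutation test (p = 0.2, adjusted over 2 ratios 0.4). It was −0.093 without Isl1_hypo replicate 3, and −0.224 to −0.093 when any 1 library was left out. Actc1 itself was at 21020 ± 2396 CPM in CTRL and 23650 ± 2323 CPM in Isl1_hypo (log2 fold change 0.17, adjusted p = 0.579, edgeR). Muscle actin genes share near-identical coding sequence, and how reads that match several of them were assigned makes their separate counts uncertain, above all for a gene as low as Actg2 beside one as high as Actc1.

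The actin-binding proteins Tagln and Cnn1 are early genes of smooth muscle differentiation. Tagln (chr9:45737711-45744141, minus strand) was at 585, 716, 795 and 678 CPM across CTRL 1 to 4, against 725, 534, 361 and 720 CPM across Isl1_hypo 1 to 4. Isl1_hypo replicates 2 and 3 were the lowest libraries, while replicates 1 and 4 lay within the CTRL range. The log2 fold change was −0.25 (adjusted p = 0.646, edgeR), and −0.07 without Isl1_hypo replicate 3. Of the exon bases of Tagln, 65 are shared with Pcsk7 on the other strand, which the counting did not separate.

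Cnn1 (chr9:21903725-21914074, plus strand) had its highest value in the control group. Its level was 585, 350, 395 and 315 CPM across CTRL 1 to 4, against 292, 299, 272 and 393 CPM across Isl1_hypo 1 to 4. CTRL replicate 1 was the highest library, and Isl1_hypo replicate 4 lay among the other CTRL embryos. The means were 411 ± 121 and 314 ± 54.0 CPM, with a log2 fold change of −0.39 and a 95% interval of −0.80 to 0.02 (adjusted p = 0.449, edgeR). Without CTRL replicate 1 it was −0.17 (adjusted p = 0.71).

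Smtn and Des encode parts of the cytoskeleton, smoothelin on the actin filaments of contractile smooth muscle and desmin in the intermediate filaments of all muscle types. Smtn (chr11:3417526-3440615, minus strand) was at 95.3, 97.8, 93.8 and 88.1 CPM across CTRL 1 to 4, against 96.9, 88.8, 48.6 and 73.4 CPM across Isl1_hypo 1 to 4. Des (chr1:75356904-75365154, plus strand) was at 1513, 1497, 1691 and 1711 CPM in CTRL and at 1582, 1595, 744 and 1438 CPM in Isl1_hypo. For both genes Isl1_hypo replicate 3 was the lowest library, at 56.2% of the mean of the other Isl1_hypo embryos for Smtn and 48.4% for Des. The log2 fold changes were −0.29 for Smtn (adjusted p = 0.549, edgeR) and −0.26 for Des (adjusted p = 0.635, edgeR). Without that library they were −0.12 and −0.06. Smtn shares 753 exon bases with a pair of lincRNAs and Des 220 with Gm15179, in both cases on the opposite strand.

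Myh11 and Mylk encode the motor and its switch: smooth muscle myosin heavy chain, a marker of mature smooth muscle, and the kinase that phosphorylates the myosin regulatory light chain. Myh11 (chr16:14194620-14291501, minus strand) was counted 24, 14, 64 and 39 times in the CTRL replicates and 8, 0, 0 and 4 times in the Isl1_hypo replicates, 141 against 12 counts in all. Isl1_hypo replicates 2 and 3 held no read, where 3 counts would be 0.112 and 0.0948 CPM, and replicate 1 lay above CTRL replicate 2 in CPM. The gene was close to the limit of detection in both groups. The mean was 0.884 ± 0.518 CPM in CTRL and 0.143 ± 0.205 CPM in Isl1_hypo.

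The fitted log2 fold change of Myh11 was −2.74 with a 95% interval of −5.07 to −0.40 and depends on the prior count (unadjusted p = 0.0255, adjusted p = 0.338, edgeR). Without Isl1_hypo replicate 1, the library of that group with the most reads, it was −4.16, and leaving out any other library gave −2.99 to −2.28. An exact permutation test gave p = 0.0571. The minimum of 0.318 CPM in at least 4 libraries was met through the 4 CTRL libraries, since 1 Isl1_hypo library exceeded it. Myh11 was therefore tested because of the group in which it was higher, and its unadjusted p gives no support to a difference.

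Mylk (chr16:34745296-35002520, plus strand) was at 3.97, 3.35, 3.48 and 6.58 CPM across CTRL 1 to 4, against 8.31, 4.20, 3.32 and 5.40 CPM across Isl1_hypo 1 to 4. The highest and the lowest value were both in Isl1_hypo. The log2 fold change of 0.28 had a wide 95% interval of −0.46 to 1.03 (adjusted p = 0.775, edgeR), and no difference was detected. What made the interval wide was not tested. The log2 fold change was 0.45 without Isl1_hypo replicate 3, 0.555 without CTRL replicate 4 and −0.016 without Isl1_hypo replicate 1, so its sign rested on that last library.

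**Figure D3:**
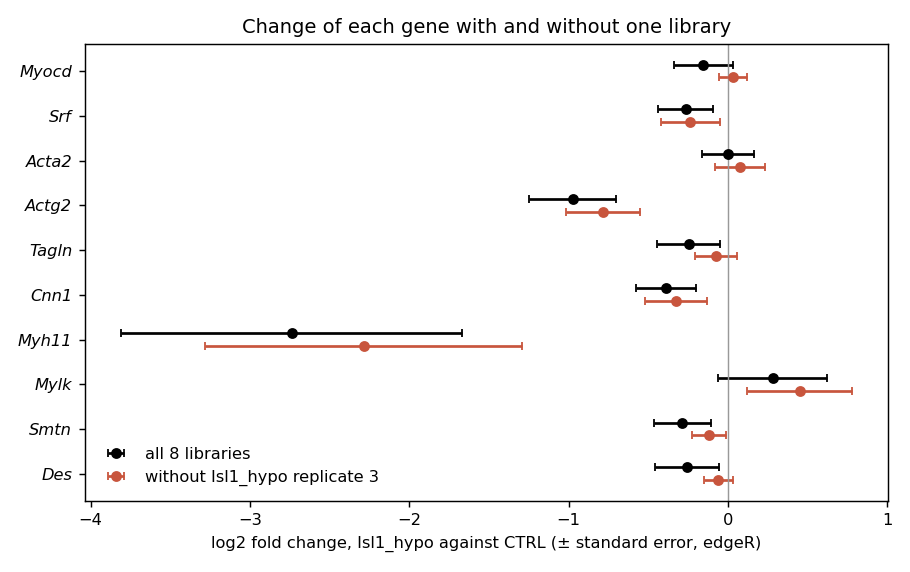
Log2 fold change of the 10 smooth muscle genes, Isl1_hypo against CTRL (horizontal axis), with standard errors from edgeR, for all 8 libraries (black) and without Isl1_hypo replicate 3 (red). Without that library Myocd moves from −0.15 to 0.03 and Des from −0.26 to −0.06, while Actg2 is at −0.97 and −0.78.

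The order of the genes by level was taken per kilobase of transcript, as CPM per kilobase. In CTRL it ran from Acta2 at 2130 ± 460 through Des at 525 ± 37.3, Tagln at 439 ± 55.2 and Cnn1 at 208 ± 60.9 to Myocd at 35.2 ± 2.27 and Smtn at 27.9 ± 1.22. Below these were Actg2 at 11.1 ± 2.17, Srf at 7.43 ± 1.49, Mylk at 0.559 ± 0.195 and Myh11 at 0.134 ± 0.0786. Among neighbours in this order, Des and Tagln overlapped over the 4 CTRL embryos, as did Actg2 and Srf, and the other neighbours did not. In Isl1_hypo the mean of Actg2, 5.69 ± 2.17, lay below that of Srf, 6.18 ± 0.913, with overlapping ranges.

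The levels bear on what the name of the group stands for. The defining gene of mature smooth muscle, Myh11, was the lowest of the 10 in both groups, whereas Actc1, at 14500 ± 1650 CPM per kilobase in CTRL, exceeded Acta2 in every library. The 7 defining cardiomyocyte markers summed to 32200 to 39400 CPM in CTRL and 34400 to 41300 CPM in Isl1_hypo. The 11 defining smooth muscle markers summed to 8080 to 10600 CPM and 7320 to 9990 CPM, with Acta2 the most abundant of them. The 5 skeletal muscle markers (Myod1, Myf5, Myog, Chrna1 and Pax7) were too low to be tested, with a sum of at most 0.621 CPM in any library. The RNA measured here was therefore that of a tissue rich in heart muscle, and which cells the transcripts of the 10 genes came from was not measured.

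**Figure D4:**
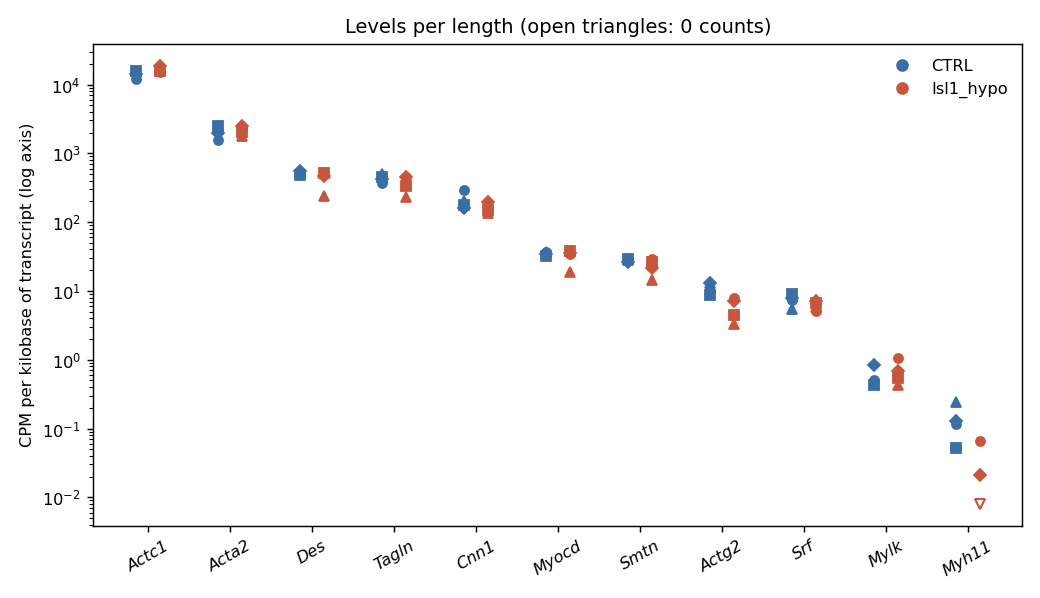
CPM per kilobase of transcript (vertical log axis) of the 10 smooth muscle genes and Actc1 in each library, CTRL in blue and Isl1_hypo in red, ordered by the CTRL mean, with marker shape giving the replicate as in the plot of CPM by library and open triangles for libraries with 0 counts. The levels span from Actc1 at 14500 to Myh11 at 0.134 in the CTRL mean, with Acta2 the highest of the 10 genes.

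The genes around these were described by lists. Among the 15 cofactors and partners of serum response factor, 9 had a log2 fold change under 0, with a median of −0.10. The median was 0.01 without CTRL replicate 1, −0.18 without CTRL replicate 3 and −0.16 and −0.17 without Isl1_hypo replicates 1 and 2. No gene of this list was lower at an unadjusted p under 0.05 with all libraries, and 3 were without Isl1_hypo replicate 3. Of the 15, 1 was higher at an unadjusted p under 0.05 (5.69% of all genes tested), the homeodomain-only protein gene Hopx, an inhibitor of serum response factor, which was at 158, 165, 116 and 188 CPM in CTRL and 255, 240, 288 and 211 CPM in Isl1_hypo. Its groups did not overlap, and its log2 fold change was 0.66 (adjusted p = 0.106, edgeR). The smooth muscle LIM protein gene Csrp2 was at −0.44 and the myocardin-related factor gene Mkl2 at −0.27 on the log2 fold change scale (adjusted p = 0.424 and 0.487, edgeR). Of the 13 immediate early and cytoskeletal targets of serum response factor, 10 were under 0 with a median of −0.37, and 6 were lower at an unadjusted p under 0.05 (6.17% of all genes tested). Without CTRL replicate 1 or CTRL replicate 3 this count was 3. They included the matricellular genes Ctgf at −0.73 and Cyr61 at −0.47 and the AP-1 gene Junb at −0.82 (adjusted p = 0.205, 0.303 and 0.206, edgeR).

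Of 22 other smooth muscle contractile and cytoskeletal genes, 18 were under 0 with a median of −0.20. Of these 22, 5 were lower and 1 higher at an unadjusted p under 0.05, where 6.17% and 5.69% of all genes tested were, and none passed the adjusted p by edgeR. Synpo2, an actin-bundling protein of muscle, was at 128, 124, 140 and 119 CPM in CTRL and 95.9, 91.5, 66.3 and 72 CPM in Isl1_hypo, with no overlap (log2 fold change −0.65, adjusted p = 0.0688, edgeR). The focal adhesion gene Vcl did not overlap either (−0.33, adjusted p = 0.283), while Filip1l did (−1.31, adjusted p = 0.153). The summed level of the list was 9840 to 11100 CPM in CTRL and 7860 to 9660 CPM in Isl1_hypo. Without Isl1_hypo replicate 3, 8 of the 22 were lower and none higher at an unadjusted p under 0.05, and the median was −0.15.

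The genes that set myosin light chain phosphorylation, beside Mylk, include kinases, phosphatase subunits and calmodulins. Of the 13 tested (Mylk2 was too low), 10 had a log2 fold change above 0, with a median of 0.12. Calm3, a calmodulin gene, was at 0.31 (adjusted p = 0.287, edgeR), and the phosphatase subunit gene Ppp1cb and the cardiac kinase gene Mylk3 were at 0.28 and 0.22 (adjusted p = 0.449 for both). Calm3 was the 1 gene of 13 that was higher at an unadjusted p under 0.05, a share near the 5.69% of all genes tested. Without Isl1_hypo replicate 3 the median was 0.02 and 6 of the 13 were under 0, so that the shift of the list shrank to near 0 without this library. Without Isl1_hypo replicate 1 the median was 0.22.

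Elastic fibre genes, which smooth muscle cells of the great arteries express as the wall matures, were under 0 for 11 of 12 genes, with a median of −0.47. Of them, 7 were lower at an unadjusted p under 0.05 (6.17% of all genes tested), and 8 without Isl1_hypo replicate 3. Without that library the median was −0.36, and 10 of 12 genes were under 0. None passed the adjusted p by edgeR with all libraries, and 1 did without Isl1_hypo replicate 4. The fibrillin gene Fbn1 was at 269, 295, 265 and 309 CPM in CTRL and 160, 167, 178 and 221 CPM in Isl1_hypo (log2 fold change −0.65, adjusted p = 0.0577, edgeR). Elastin itself, Eln, was at 76.8, 40.6, 53.1 and 67.9 CPM in CTRL and 35.1, 24.6, 8.35 and 12.6 CPM in Isl1_hypo (−1.57, adjusted p = 0.147). For both genes, and for Fbn2 (−0.47, adjusted p = 0.135), the groups did not overlap. The summed level of the 12 genes did not overlap either, at 1540 to 1880 CPM in CTRL and 932 to 1240 CPM in Isl1_hypo.

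Markers of mural cells, the contractile cells around small vessels, were under 0 for 7 of 9 genes, with a median of −0.52 and 4 lower at an unadjusted p under 0.05 (6.17% of all genes tested). Without Isl1_hypo replicate 3 the median was −0.30, with 7 of 9 under 0 and 4 lower. Rgs5 (−1.02, adjusted p = 0.147, edgeR), Cspg4 (−0.65, adjusted p = 0.275) and Heyl (−0.92, adjusted p = 0.292) had the lowest p. The 2 markers above 0 were Abcc9 (0.29, adjusted p = 0.425, edgeR) and Kcnj8 (0.70, adjusted p = 0.635). The summed level of the 9 mural markers was 716 to 768 CPM in CTRL and 385 to 631 CPM in Isl1_hypo. Of 14 cardiac muscle genes 6 were under 0, with a median of 0.01, and 3 were lower and 1 higher at an unadjusted p under 0.05 (6.17% and 5.69% of all genes tested). The median ranged from −0.057 to 0.084 when 1 library was left out, with 9 of 14 under 0 without CTRL replicate 1 or Isl1_hypo replicate 4. Nppa, the atrial natriuretic peptide gene, rose by a log2 fold change of 1.13 (adjusted p = 0.0303, edgeR), whereas the myosin gene Myh7 and the titin gene Ttn were at −0.49 and −0.90 (adjusted p = 0.165 and 0.173). Nppa was the only gene of all these lists with an adjusted p under 0.05 by edgeR with all 8 libraries. Its call was lost when any 1 of 7 libraries was left out (adjusted p = 0.0547 to 0.104, edgeR) and held without Isl1_hypo replicate 3 (adjusted p = 0.00342), with a log2 fold change of 1.03 to 1.26 throughout.

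**Figure D5:**
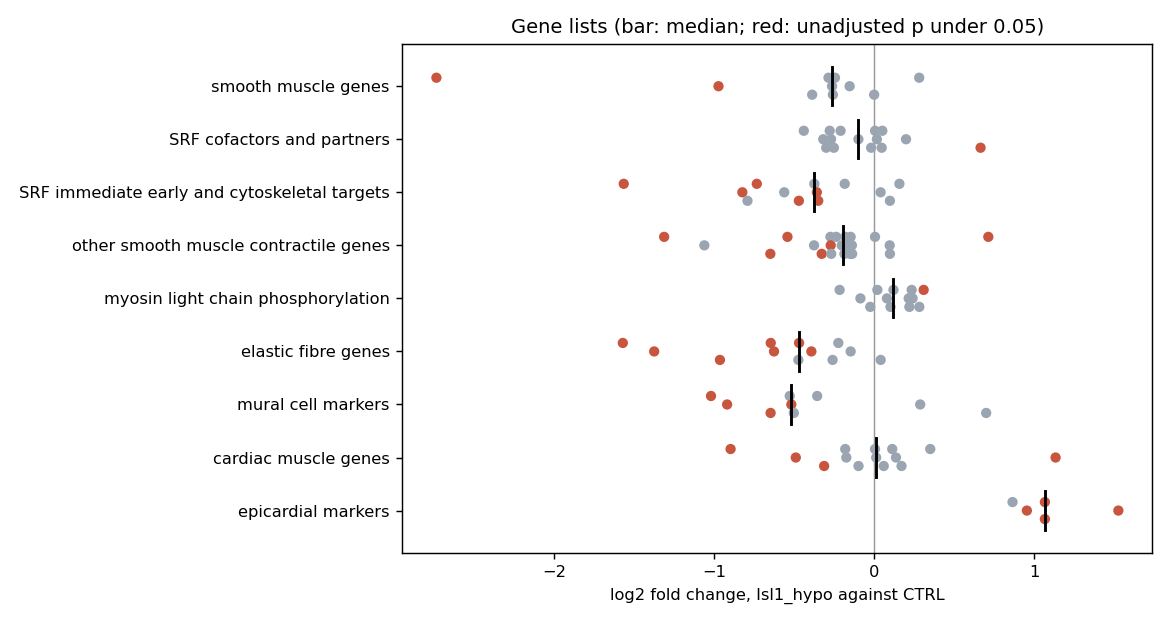
Log2 fold change, Isl1_hypo against CTRL (horizontal axis), of each tested gene of the 10 smooth muscle genes and of 8 related lists, with a black bar at each list's median and red points for an unadjusted p under 0.05. The medians run from −0.52 for mural cell markers to 1.07 for epicardial markers, with the 10 smooth muscle genes at −0.26.

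Values for markers of other cells in the dissected tissue stand beside these. The 5 epicardial markers all had a log2 fold change above 0 (median 1.07, 4 at an unadjusted p under 0.05, against 5.69% of all genes tested), and their summed level was 48.3 to 303 CPM in CTRL and 366 to 586 CPM in Isl1_hypo. The mesenchyme and neural crest markers were under 0 for 5 of 6 tested genes (median −0.42, 872 to 1510 CPM in CTRL against 642 to 1640 CPM in Isl1_hypo), and their median was −0.20 without CTRL replicate 1. The endothelial markers were under 0 for 4 of 5 (median −0.20, 543 to 627 CPM against 412 to 534 CPM). All 3 tested epithelial markers and all 9 globin genes were above 0, with medians of 0.92 and 1.66, and 2 of 4 tested macrophage markers were (median −0.04, and from −0.86 to 0.29 when 1 library was left out). None of these genes passed the adjusted p by edgeR with all 8 libraries. Without CTRL replicate 4, the CTRL library with the most globin, 7 of the 9 globin genes passed it and their median was 2.58. Of all 13873 genes tested in that setting, 40 passed it. The 9 globin genes are not separate measurements, since Hba-a1 and Hba-a2 had the same values. Those of Hbb-b1 and Hbb-bs nearly matched, as did those of Hbb-b2 and Hbb-bt. Isl1_hypo replicate 1 held 15.3 CPM of Cdh1, 38.5 CPM of Cldn6 and 9.83 CPM of Epcam, epithelial genes that reached at most 0.311, 0.199 and 1.87 CPM in the other 7 libraries, and Cdh1 and Cldn6 were too low elsewhere to be tested. Without that library the 10 smooth muscle genes had a median of −0.35, with all 10 under 0 and 3 lower at an unadjusted p under 0.05. Of all 13939 genes tested in that setting, 1930 had an unadjusted p under 0.05 in either direction. Myh11 was at −4.16 there, and the limit stated for it, of passing the filter through CTRL, holds in this setting too. The part of a shifted cell makeup in the smooth muscle values was not tested.

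Among 10743 genes with a mean of at least 5 CPM, those with the pattern most like Myocd over the 8 libraries were Notch1, Sap130 and Fam78a. Their log2 CPM, centred on each gene's mean, differed from that of Myocd by 0.0399, 0.05 and 0.0607 on average, where Myocd itself deviated from its mean by 0.206. All were low in Isl1_hypo replicate 3, where Notch1 was at 40.7 CPM against a CTRL mean of 75.3 CPM. For Acta2 the nearest genes were Msrb3 and Uxt, at 0.0768 and 0.0803 against a deviation of Acta2 of 0.207. These 8 points share the depth and the composition of their libraries.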

How the data were processed

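According to the study's methods, the authors aligned reads with STAR to mm9 and counted exon reads with HOMER, adding both strands. The deposited counts are raw and listed by RefSeq accession. The authors' RPKM values and their DESeq2 columns (mean normalized signal, log2 fold change, Wald score and p-value) were deposited too and were not used. For each of 20701 symbols the transcript with the highest mean count was kept. Genes were filtered with filterByExpr (minimum count 10), scaled by TMM and tested by quasi-likelihood in edgeR 4.0.16 (R 4.3.3) without covariates, with Benjamini-Hochberg adjustment over 13769 genes; log2 CPM had a prior count of 2. Totals were 18422245 to 46678973 counts per library, and intervals on counts cover counting error only. Code was tested on simulated data. Alternatives used DESeq2 1.42.0, limma 3.58.1 and other scalings, filters, transcripts and libraries.

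The genes and lists were chosen with earlier results of these data known. All 10 genes were named, with Isl1, Actc1, the up to 3 genes of lowest p in the lists shown, and the 3 genes nearest in pattern to Myocd and to Acta2, of which 1 is not reported here. Other list members were named after their values were seen. Positions came from GENCODE M1 (mm9) and promoters from RefSeq (GRCm38.p6). Embryos are separate samples, with no litter stated.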

Additional observations from a re-analysis of the deposited data

How the results depend on the processing

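Of 273 values recomputed under an alternative, 249 kept their direction and their side of the threshold or, for a count of genes, lay within 1.5 times of it. The number of genes called was 319 with DESeq2 and 130 with limma-voom and sample weights, and 4 to 48 when 1 library was left out (4, 5 and 8 without CTRL replicates 3, 2 and 1, and 12 and 11 without Isl1_hypo replicates 2 and 4). Among the smooth muscle genes DESeq2 called 1 (Actg2, log2 fold change −0.97, adjusted p = 0.0387). The adjusted p of Actg2 ranged from 0.0387 to 0.447. At an unadjusted p under 0.05, 1 smooth muscle gene was counted with at least 10 counts in every library and 1 to 3 when 1 library was left out, with 1 without Isl1_hypo replicate 2. Acta2 had a log2 fold change of 0.0038 over every transcript, and leaving out 1 library gave −0.133 to 0.085. The same gave −0.27 to 0.031 for Myocd and −0.016 to 0.555 for Mylk, with the ends of opposite sign without Isl1_hypo replicate 3 and replicate 1. The difference in the Myocd to Srf log2 ratio ranged from −0.095 to 0.26, and was under 0 without CTRL replicate 2, Isl1_hypo replicate 1 or replicate 2 (−0.095, −0.091 and −0.024). The cause of these shifts was not tested.

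With the replicate number as a replicate block, no gene was called (0 by the edgeR test, against 1582 at an unadjusted p under 0.05), the log2 fold change of Isl1 was −2.287 (adjusted p = 0.0722) and that of Acta2 0.015. Deviations of same-numbered libraries correlated at −0.021 to 0.022. These values cannot show whether same-numbered embryos shared a litter or a day of handling, which is not stated. Counts as low as those of Myh11 limit what these libraries can show.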

Other observations

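For 3 of the 5 epicardial markers every Isl1_hypo embryo lay above every CTRL embryo, as for 4.06% of all genes tested. Upk3b, a gene of mesothelial and epicardial cells, was at 21.1, 98.3, 86.1 and 154 CPM across CTRL 1 to 4, against 218, 223, 402 and 194 CPM across Isl1_hypo 1 to 4 (log2 fold change 1.53, adjusted p = 0.224, edgeR). Wt1, a transcription factor gene of the epicardium, was at 6.24, 19.5, 23.1 and 28.3 CPM in CTRL and at 37.9, 45.7, 40 and 38.5 CPM in Isl1_hypo (1.07, adjusted p = 0.268). Tcf21 was at 13.3, 29.6, 27.3 and 51.4 CPM in CTRL and at 52.4, 69.3, 60 and 54.3 CPM in Isl1_hypo (0.95, adjusted p = 0.282). For all 3 genes the groups did not overlap, and CTRL replicate 1, the library with the highest Cnn1, was the lowest.

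The macrophage markers were divided. Lyz2 was at 6.55 ± 2.77 CPM in CTRL and 19.4 ± 5.30 CPM in Isl1_hypo without overlap (log2 fold change 1.57, adjusted p = 0.0824, edgeR), and Cd68 was at 0.38 (adjusted p = 0.844). Csf1r and Mrc1 were at −0.86 and −0.46 (adjusted p = 0.605 and 0.864), and Fcgr1, too low to be tested, had a mean of 0.637 CPM in CTRL and 0.178 CPM in Isl1_hypo. Of the 5 endothelial genes Pecam1 and Cdh5 were at −0.58 and −0.54 (adjusted p = 0.17 and 0.241, edgeR), each without overlap. Kdr and Tek were at −0.20 and −0.18 (adjusted p = 0.567 and 0.617), and Emcn was at 0.23 (adjusted p = 0.475).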
